A study of Canis lupus familiaris with 36 samples.

Results

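DNA replication needs a set of proteins that open origins, unwind the duplex, copy both strands and keep deoxynucleotides in supply, and the transcripts of 47 such genes were followed here across canine lymphoma subtypes. The 47 genes were taken by name, not by a cut on their measured values, with earlier results of these data known. Of these, 46 were paired with at least 1 probe set on the array, and 44 reached the minimum signal in enough dogs to be tested among 7500 tested genes of 15115 genes with a probe set. LIG1, the ligase that seals lagging-strand fragments, had no probe set paired with it and was not analysed here. GINS3 and CHAF1B were measured but stayed under the minimum in nearly every dog.

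Primary lymphoma tissue from 35 dogs was dissociated mechanically and passed through a filter, and total RNA was profiled on 36 Affymetrix canine arrays, since 1 DLBCL case had 2. The B-phenotype lymphomas were diffuse large B-cell lymphoma (DLBCL, 10 dogs aged 4 to 14 at diagnosis, all high grade, 4 males and 6 females), BL (2 dogs aged 2 and 5, both high grade, 1 of each sex) and marginal zone lymphoma (MZL, 5 dogs aged 4 to 10, all low grade, 1 male and 4 females). The T-phenotype lymphomas were peripheral T-cell lymphoma (PTCL, 4 dogs aged 6 to 14, 3 high grade and 1 intermediate, 2 males and 2 females), LBT (4 dogs aged 3 to 10, all high grade, 1 male and 3 females) and T-zone lymphoma (TZL, 9 dogs aged 7 to 11, all low grade, 6 males and 3 females). BL and LBT are given as labelled. A single low-grade dog aged 8, a female Golden Retriever, was labelled NBNT and entered no comparison. By breed, 8 of 9 TZL and 4 of 5 MZL dogs were Golden Retrievers, as were 6 DLBCL, 3 LBT, 1 BL and 1 PTCL dog, so breed differed most between PTCL and TZL. No treatment was labelled and no normal lymphoid tissue was among the samples, so every difference is between lymphomas.

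Replication proceeds in steps that fix the order of the groups below. In G1 the origin recognition complex (ORC) recruits CDC6 and CDT1, which load the ring-shaped MCM helicase onto DNA, while geminin (GMNN) prevents loading a second time. In S phase CDC45 and the GINS complex join the MCM ring and make it an active helicase, primase and polymerase alpha lay primers, and polymerases epsilon and delta extend the leading and lagging strands on the PCNA clamp that the RFC complex loads. RPA covers single strands, FEN1 trims lagging-strand flaps, ribonucleotide reductase, TYMS, TK1 and DUT supply and protect the nucleotide pool, and UHRF1 and the CHAF1 subunits copy methylation and nucleosomes behind the fork. In lymphoid tissue most of these transcripts are low in resting lymphocytes and rise when cells enter the cycle. In bulk tissue fewer cycling cells and less RNA per cell cannot be told apart.

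The median linear intensity of an array was 5.57 to 6.13, and the share of its probe sets at or above the minimum intensity of 16 (log2 value 4) was 32.2% to 35.5%. In MZL against TZL 5 of 6 tested B-cell markers were higher and 8 of 8 T-cell markers lower, and in DLBCL against the high-grade T lymphomas 6 of 6 and 8 of 8. The arrays of 6 dogs stood apart (DLBCL 4 and 9, PTCL 3, and TZL 1, 2 and 7). Their actin 3′ control had log2 values of 14.03 to 14.45, while the other arrays reached 12.45 at most and 10.79 at least. Within subtypes 9 of 44 members differed between those 6 arrays and the rest (8 higher, DUT lower), against 22.4% of all tested genes. On the probe set that separates the labelled sexes most, 2 dogs, MZL 2 and PTCL 3, opposed their sex label. Counts of called members are therefore also given without the 6 arrays and without those 2 dogs, and the counts of 0 remained 0 in both.

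TZL stood below the other subtypes for most of the machinery. Averaged over the 46 genes, the log2 level was 6.35 ± 0.38 in TZL (SD, n = 9), 7.16 ± 0.32 in MZL (n = 5), 7.52 ± 0.33 in PTCL (n = 4), 7.58 ± 0.29 in DLBCL (n = 10), 7.76 ± 0.16 in LBT (n = 4) and 8.06 ± 0.26 in BL (n = 2). The 9 TZL dogs ran from 5.82 to 6.89 with a median of 6.25. The 5 MZL dogs stood at 6.85, 7.52, 7.33, 6.79 and 7.28, so 2 of them overlapped the top of the TZL range, while the lowest PTCL, DLBCL, LBT and BL dogs stood at 7.09, 7.12, 7.58 and 7.87. The neighbours MZL and PTCL overlapped, as did PTCL, DLBCL and LBT, and the lower BL dog lay within the DLBCL and LBT ranges. Over all tested genes the same mean lay between 6.88 and 6.98 in every subtype. With values under the minimum set to it, the TZL mean was 6.55 and the MZL mean 7.26. TZL had the lowest subtype mean for 37 of the 44 tested members, and the highest mean was that of BL for 26 and of LBT for 14. By limma's moderated F test over the 6 subtypes 42 of 44 members differed at a Benjamini-Hochberg adjusted p under 0.05, against 56.8% of all tested genes. The other two were CDT1, the loading factor (adjusted p = 0.776), and RPA3, the small RPA subunit (adjusted p = 0.0620).

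**Figure D1:**
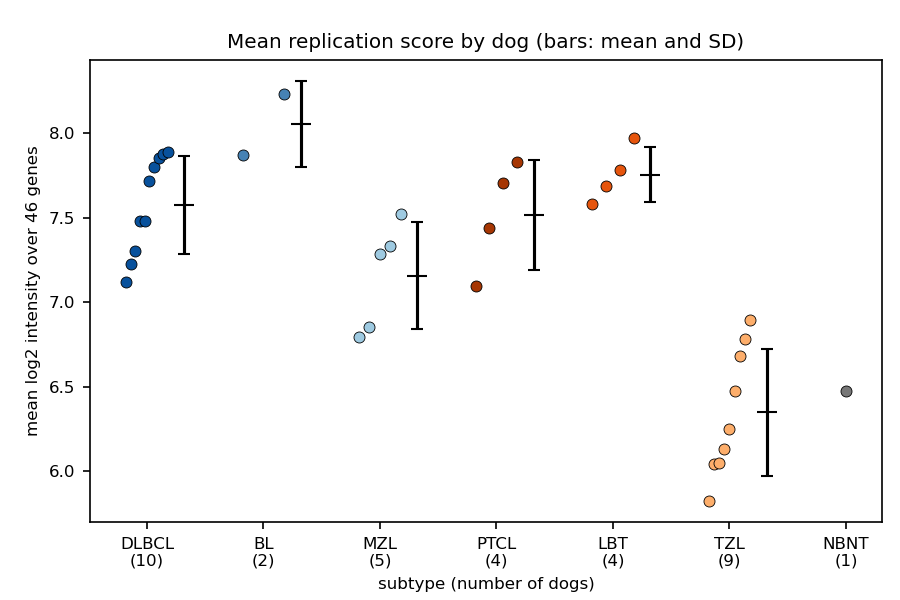
Mean log2 intensity over the 46 measured replication and nucleotide supply genes, 1 point per dog by subtype, with the subtype mean and SD as bars. The 9 TZL dogs sit between 5.82 and 6.89, below every PTCL, DLBCL, LBT and BL dog and overlapping the 2 lowest MZL dogs. The single NBNT dog, drawn without bars, lies within the TZL range at 6.48.

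Some dogs of a subtype lay on 1 side of its median over much of the set. TZL 7 and TZL 9 each lay above the TZL median for 36 of 44 members, and TZL 5 below it for 35. DLBCL 2 and DLBCL 11 each lay above the DLBCL median for 36, and DLBCL 3 was the lowest DLBCL dog for 18. PTCL 1, the lowest of its subtype in the averaged level, was below the PTCL median for 39 members, and MZL 4 below the MZL median for 36. The median SD of the members within TZL was 0.49 log2 units against 0.44 over all tested genes, and within DLBCL it was 0.52 against 0.57.

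**Figure D2:**
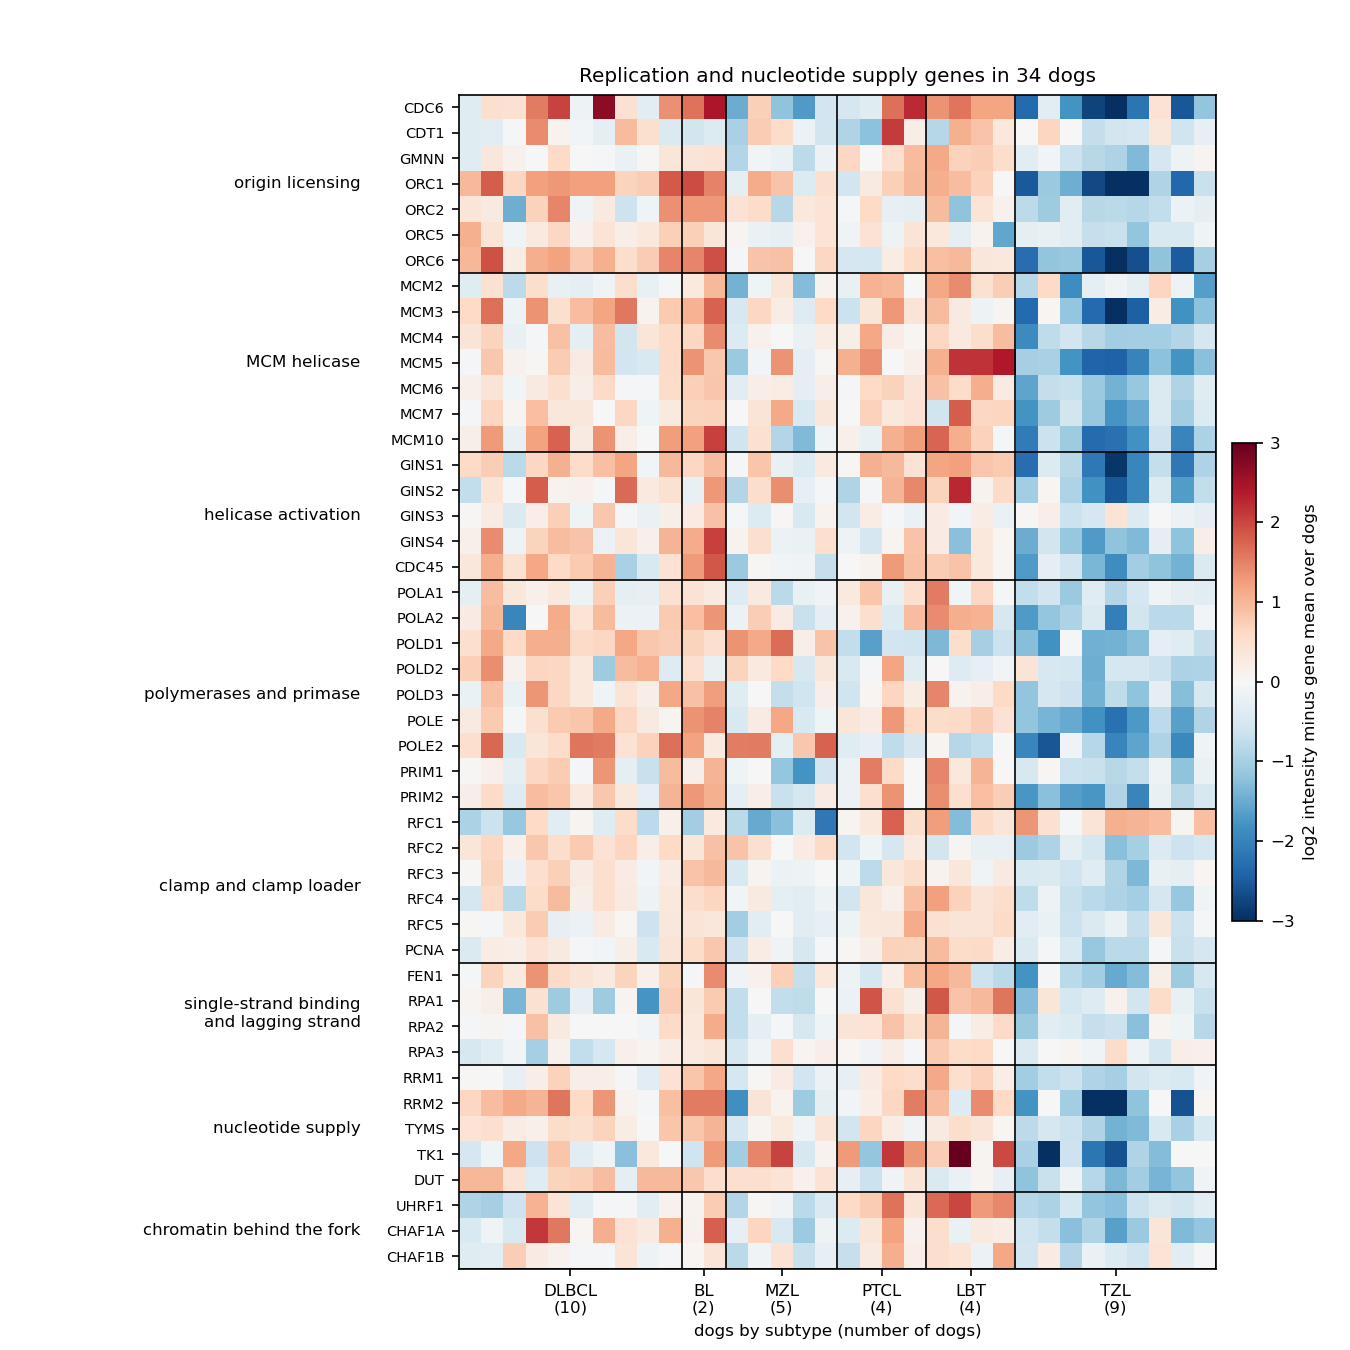
Log2 intensity of each of the 46 measured genes minus its mean over dogs, with genes by role in lines and 34 dogs by subtype in columns. The 9 TZL columns are blue, meaning lower, for most genes, with RFC1 as an exception, and the BL and LBT columns are mostly red.

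The comparison of PTCL with TZL sets 3 high-grade dogs and 1 of intermediate grade, PTCL 4, against the low-grade T lymphoma. By limma with Benjamini-Hochberg adjustment, 28 of 44 members were higher in PTCL and 0 lower, against 7.6% higher and 6.07% lower over all tested genes. At an unadjusted p under 0.05 there were 37 members, all higher, against 27.0% of genes in either direction. The median member difference was 1.03 on the log2 scale, against 0.03 over all genes, and 43 of 44 differences were above 0, against 51.7% of genes. The median was 0.94 with values under the minimum set to it. For 14 members every PTCL dog lay above every TZL dog, against 3.53% of all genes. Of the 28 calls 20 held without any 1 of the 13 dogs, while TK1, GINS2, GINS4, POLA1, POLD3, RFC4, RFC5 and CHAF1A lost theirs without at least 1 dog. Without PTCL 4, so with high-grade PTCL dogs only, 21 members were called, against 14.5% of all tested genes in either direction. GINS2 then fell from 1.61 to 1.26 log2 units, GINS4 from 1.04 to 0.78, RFC4 from 0.90 to 0.67 and RFC5 from 0.72 to 0.49. Without PTCL 3 POLD3 fell from 0.94 to 0.75. CHAF1A and POLA1 were under the minimum in every TZL dog and GINS2 in 4 of 9, and with such values set to the minimum none of these 3 was called while PRIM1 was. The count was 22 without the 6 arrays and 22 without the 2 dogs of opposed sex signal, against 7.41% and 9.05% of all tested genes in either direction. In Golden Retrievers, where PTCL is 1 dog, the difference was 3.11 log2 units for MCM5 and 2.81 for GINS1, while that of TK1 changed sign.

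LBT differed from TZL at more members. Here 34 of 44 members were higher in LBT and 0 lower by limma, against 17.8% and 12.4% of all tested genes, and all 38 with an unadjusted p under 0.05 were higher, against 40.8% of genes in either direction. The median member difference was 1.34 on the log2 scale against 0.05 over all genes, and 43 of 44 were above 0, against 52.4% of genes. The median was 1.24 with values under the minimum set to it. Every LBT dog lay above every TZL dog for 23 members, against 10.3% of genes. Of the 34 calls 29 held without any 1 dog, and CHAF1A, DUT, FEN1, PRIM1 and RFC3 lost theirs without at least 1. FEN1 fell from 1.05 to 0.72 without LBT 1, as did PRIM1 from 1.25 to 0.99, DUT fell from 0.68 to 0.59 without LBT 3 and RFC3 from 0.66 to 0.59 without LBT 2. With values under the minimum set to it CHAF1A lost its call and RFC2 gained one. The count was 33 without the 6 arrays and 33 without the 2 dogs, against 28.3% and 30.5% of all tested genes in either direction. The comparisons of PTCL, LBT and MZL with TZL share the 9 TZL dogs, so their counts are set side by side and not taken as independent.

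Markers of other cells moved with some comparisons. Between PTCL and TZL the macrophage markers CD14 and CD68 (2 of 7 tested) and the endothelial KDR (1 of 2) were higher in PTCL. KDR was under the minimum in every TZL dog and CD14 in 7 of 9, and with such values set to the minimum the CD14 difference was 1.55 log2 units and KDR was no longer called. Summed linear intensity over 8 macrophage genes ran from 205 to 1127 in PTCL and from 44.1 to 709 in TZL, with 1 and 2 of the genes under the minimum in every dog.

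Between LBT and TZL 3 of 6 tested B-cell markers, CD79A, CD79B and CD22, were lower in LBT. Their list summed to between 42.0 and 1956 in LBT, where 2 of 7 were under the minimum in every dog, and to between 349 and 3182 in TZL, where 1 was. Of 7 macrophage markers CD14 was higher in LBT and MARCO lower, and the macrophage sum ran from 68.7 to 136 in LBT, with 5 of 8 genes under the minimum in every dog. Of 8 T-cell markers CD5 was lower in LBT, by a log2 difference of -1.97 (limma adjusted p = 0.0341). S1PR1 and IL7R, of the resting lymphocyte list, were also lower in LBT and TCF7 was higher. With values under the minimum set to it CD22 and MARCO were no longer called and the CD14 difference was 0.74 log2 units. Their part in the members' differences was not tested.

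MZL, the low-grade B lymphoma, also differed from TZL. In MZL 21 members were higher and 1 lower by limma, against 15.2% and 12.3% of all tested genes, with a median member difference of 0.91 against 0.08 on the log2 scale and 39 of 44 differences above 0, against 55.2% of genes. With values under the minimum set to it the median was 0.62, and GINS2, MCM10, POLE and TK1, for which 3 to 9 of the 9 TZL dogs were under it, were no longer called, which left 18 calls. Every MZL dog lay above every TZL dog for 8 members, against 7.01% of genes, and below for RFC1, against 7.05%. Of the 22 calls 17 held without any 1 dog, and FEN1, GINS2, MCM10, POLD2 and TK1 did not. Without MZL 3 FEN1 fell from 0.95 to 0.78 log2 units, GINS2 from 1.38 to 1.07 and TK1 from 1.73 to 1.33, without MZL 2 MCM10 fell from 1.03 to 0.79, and POLD2 fell from 0.91 to 0.81 without MZL 1. The count was 22 without the 6 arrays and 18 without the 2 dogs, against 24.6% and 23.4% of all tested genes in either direction. Of the resting lymphocyte list 3 of 5 tested genes, IL7R, LEF1 and TCF7, were lower in MZL, and their part was not tested. CCR7 and S1PR1 of that list, each with a log2 difference of -0.47, were not called by limma.

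Among the origin licensing genes, 4 of 7 tested were higher in PTCL, 4 in LBT and 2 in MZL than in TZL. This count and those of the roles below stand against 7.6%, 17.8% and 15.2% of all tested genes in that order. ORC6, the smallest ORC subunit, had log2 levels from 4.52 to 7.05 with a median of 5.77 in TZL. It stood at 7.54, 7.52, 8.28 and 8.64 in PTCL, at 8.96, 9.02, 8.38 and 8.37 in LBT, and at 8.01, 8.92, 8.94, 8.04 and 8.67 in MZL. In DLBCL it ranged from 8.27 to 9.95 around a median of 9.08, and the BL dogs had 9.53 and 9.98. No dog of another subtype reached down to the TZL range. The log2 difference from TZL was 1.95 ± 0.36 (SE) in PTCL (limma adjusted p = 0.000461), 2.64 ± 0.36 in LBT (adjusted p = 3.3e-06) and 2.47 ± 0.34 in MZL (adjusted p = 3.29e-06).

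ORC1, the ATP-binding subunit that starts ORC assembly, ran in TZL from 2.93 to 7.07 around 5.39 on the log2 scale. It was 7.17, 8.02, 8.46 and 8.71 in PTCL, 8.84, 8.67, 8.44 and 7.76 in LBT, and 7.48, 8.86, 8.61, 7.35 and 8.22 in MZL, all above the highest TZL dog. Of the TZL dogs 2 of 9 were under the minimum, and with their values set to it the log2 differences were 2.48, 2.82 and 2.49 in that order, each called by limma. CDC6, the helicase loader, was under the minimum in 6 of 9 TZL dogs, which ran from 2.10 to 6.20. Its level was 7.10, 7.36, 6.94 and 6.95 in LBT, above every TZL dog, and 5.24, 5.39, 7.42 and 8.00 in PTCL, where 2 dogs lay within the TZL range. Geminin ran from 7.45 to 8.85 in TZL, was 9.40, 8.80, 9.29 and 9.73 in PTCL and 9.91, 9.47, 9.52 and 9.31 in LBT. Only PTCL 2 fell within the TZL range, and the differences were 1.06 ± 0.22 and 1.30 ± 0.22 log2 units. MZL stood at 7.89, 8.69, 8.57, 8.00 and 8.59 for geminin, inside the TZL range, with a difference of 0.10 (limma adjusted p = 0.751). ORC2, ORC5 and CDT1 were not called in any of the 3 comparisons with TZL on their brightest probe sets. Another ORC5 probe set was called in PTCL (1.16, limma adjusted p = 0.0132 over all tested probe sets) and in MZL (0.86, adjusted p = 0.0295), and another CDT1 probe set in LBT (1.43, adjusted p = 0.0233). Over the set 45 other probe sets of 30 members were tested, and those of members called on the brightest had its sign for 26 of 26 in PTCL, 33 of 33 in LBT and 27 of 28 in MZL.

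Of the 7 MCM helicase members 6 were higher in PTCL, 7 in LBT and 6 in MZL than in TZL. MCM5, a subunit at the gate where the ring opens, ran from 6.59 to 8.05 around 7.22 in TZL on the log2 scale. It stood at 10.07, 11.18, 11.17 and 11.41 in LBT and at 10.08, 10.38, 9.02 and 9.16 in PTCL, with no overlap with TZL in either. In MZL it was 7.90, 8.93, 10.35, 8.71 and 9.05, so MZL 1 overlapped TZL, and in DLBCL it ran from 8.43 to 9.95 around 9.20. The LBT minus TZL difference of 3.60 ± 0.37 log2 units, 12.1-fold, was the largest of any member in any comparison (limma adjusted p = 1.68e-08), and the PTCL minus TZL difference was 2.30 ± 0.37 (adjusted p = 8.77e-05).

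MCM6, another ring subunit, ran from 9.95 to 11.15 in TZL on the log2 scale and stood at 11.50, 12.12, 12.23 and 11.90 in PTCL, at 12.41, 12.08, 12.60 and 11.77 in LBT and at 11.19, 11.72, 11.74, 11.23 and 11.70 in MZL. All 3 groups lay above TZL without overlap, by 1.34, 1.62 and 0.92 log2 units, each with an SE of 0.19 to 0.21. MCM10, which helps the loaded helicase to fire, was under the minimum in 5 of 9 TZL dogs, which ran from 3.03 to 4.72, and stood at 5.49, 5.11, 6.39 and 6.59 in PTCL and at 7.08, 6.42, 6.02 and 5.29 in LBT. Both T groups were above every TZL dog, by 1.67 and 1.97 log2 units when values under the minimum were set to it (limma adjusted p = 0.00232 and 1.25e-04). MCM3, MCM4 and MCM7 were higher in all 3 comparisons, by 0.90 to 1.97 log2 units. MCM2 was called in LBT (1.38 log2 units, limma adjusted p = 0.00833), and its difference was 0.90 in PTCL and -0.04 in MZL, neither past the threshold.

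Of the 4 tested helicase activation members 4 were higher in PTCL, 3 in LBT and 3 in MZL than in TZL. GINS1, a GINS subunit, ran from 4.49 to 6.98 around 5.45 in TZL, and stood at 7.42, 8.47, 8.37 and 7.83 in PTCL, at 8.59, 8.62, 8.22 and 8.19 in LBT and at 7.36, 8.24, 7.17, 6.98 and 7.70 in MZL. The PTCL and LBT dogs lay above every TZL dog and the lowest MZL dog met the highest TZL dog. The differences from TZL were 2.22 ± 0.37, 2.60 ± 0.37 and 1.68 ± 0.35 log2 units, each with a limma adjusted p of 0.000531 or less. CDC45 was under the minimum in 6 of 9 TZL dogs, which ran from 2.76 to 4.34. It stood at 4.63, 4.72, 5.88 and 5.49 in PTCL and at 5.38, 5.46, 4.93 and 4.65 in LBT, above every TZL dog, and at 3.50, 4.64, 4.54, 4.51 and 3.92 in MZL, within or just above the TZL range. GINS4 was called in PTCL (1.04) and MZL (1.11) and had a difference of 0.81 in LBT (limma adjusted p = 0.069). GINS3 was under the minimum in all 34 tested dogs.

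**Figure D3:**
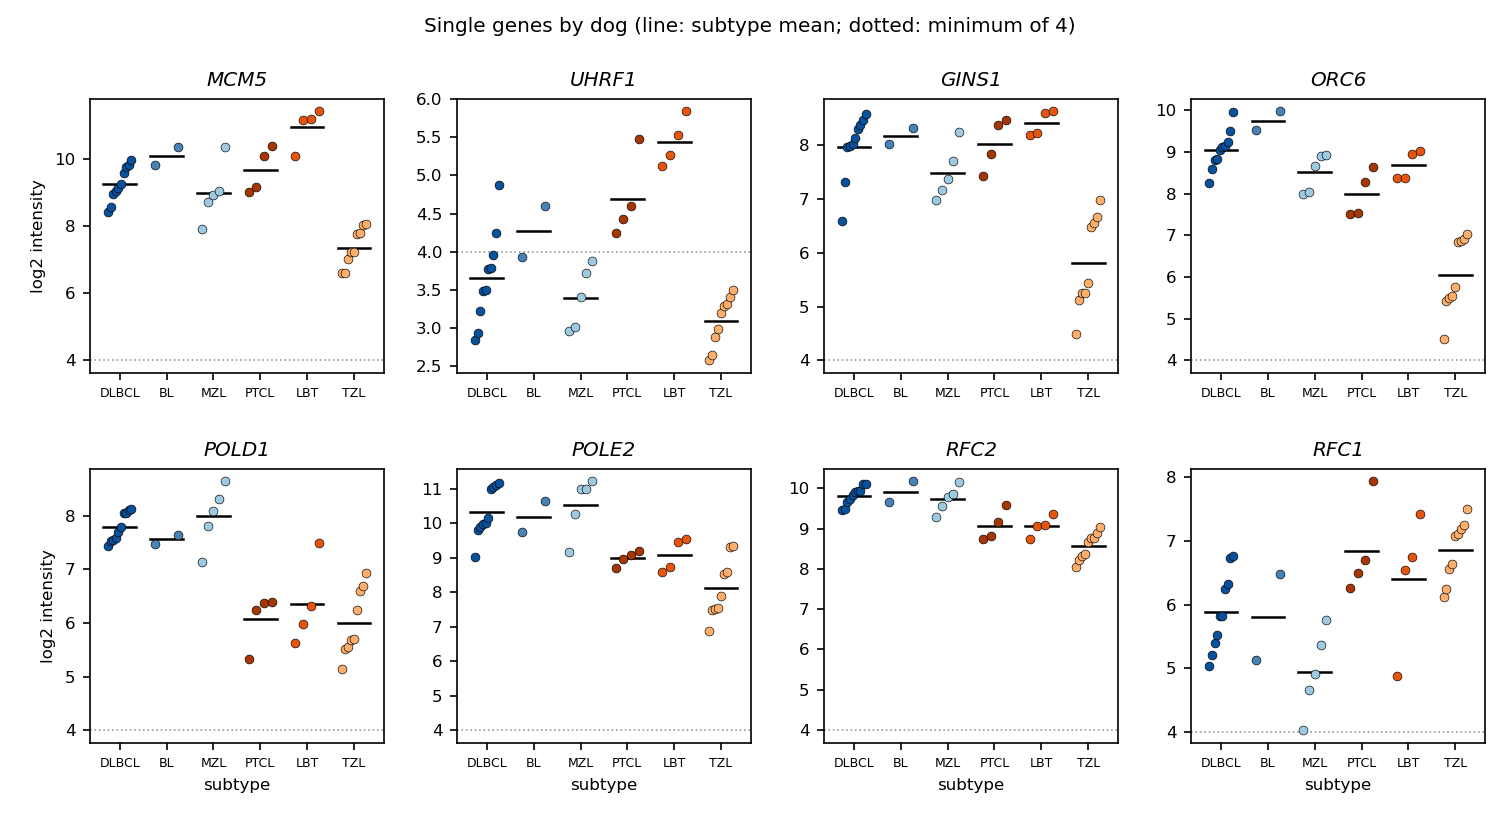
Log2 intensity of 8 genes by dog and subtype, with subtype means as lines and the minimum of 4 dotted. MCM5, UHRF1 and GINS1 are highest in LBT or near it and lowest in TZL, ORC6 is low in TZL only, POLD1, POLE2 and RFC2 are higher in B lymphomas, and RFC1 is lowest in MZL.

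Of the 9 tested polymerase and primase members 4 were higher in PTCL, 6 in LBT and 5 in MZL than in TZL. POLE, the catalytic subunit of the leading-strand polymerase, lay under the minimum in every TZL dog, from 2.00 to 3.45 on the log2 scale. It was 4.60, 4.47, 5.53 and 4.84 in PTCL, 4.79, 4.82, 4.97 and 4.67 in LBT, and 3.77, 4.48, 5.41, 3.77 and 4.10 in MZL. Every PTCL and LBT dog and 3 of 5 MZL dogs reached the minimum, while MZL 1 and MZL 4, like all TZL dogs, did not, so their order against TZL is not read. Since TZL gave only a bound, the mean levels were at least 1.81-fold, 1.75-fold and 1.24-fold that of TZL, taken against the minimum. On the values as measured all 3 comparisons were called by limma. With values under the minimum set to it, the limma adjusted p was 0.00713 in PTCL and 0.00482 in LBT. The MZL difference was then 0.40 log2 units and no longer called (adjusted p = 0.148). PRIM2, the large primase subunit, was higher in all 3 on its brightest probe set, by 1.63 log2 units in PTCL, 2.09 in LBT. Its other probe set gave 1.29 in PTCL, called, and 0.63 in LBT and -0.45 in MZL, neither called, so the LBT and MZL calls rest on 1 probe set.

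POLD1 and POLE2, the catalytic subunit of polymerase delta and the second subunit of polymerase epsilon, showed another pattern. POLD1 ran from 5.14 to 6.94 around 5.70 in TZL and stood at 6.24, 5.33, 6.39 and 6.37 in PTCL and at 5.63, 7.49, 5.97 and 6.31 in LBT, largely inside the TZL range. In MZL it was 8.31, 8.10, 8.65, 7.13 and 7.82, and in DLBCL it ran from 7.45 to 8.12. Each B dog lay above every TZL and PTCL dog. The difference from TZL was 1.99 ± 0.29 log2 units in MZL (limma adjusted p = 8.82e-06), 0.07 in PTCL and 0.34 in LBT, neither of the last 2 past the threshold. For POLE2 the levels ran from 6.89 to 9.35 in TZL and were 10.98, 11.01, 9.15, 10.26 and 11.22 in MZL, with MZL 3 overlapping TZL, and the difference was 2.40 ± 0.40.

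For the clamp and its loader 3 of 6 members were higher in PTCL, 4 in LBT and 1 in MZL than in TZL, and 1 was lower in MZL. Over all tested genes 15.2% were higher and 12.3% lower in MZL, so both MZL counts were near the background. PCNA, the sliding clamp, ran from 9.96 to 11.04 in TZL and was 11.13, 11.27, 11.78 and 11.76 in PTCL and 12.03, 11.63, 11.67 and 11.31 in LBT, all above TZL. Its differences were 0.94 ± 0.21 and 1.12 ± 0.21 log2 units, and in MZL 0.34 (limma adjusted p = 0.193). RFC2, a small RFC subunit, ran from 8.05 to 9.04 in TZL and stood at 10.15, 9.79, 9.29, 9.55 and 9.87 in MZL, above every TZL dog by a mean of 1.16 ± 0.18.

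RFC1, the large loader subunit that opens the clamp, did not follow the low TZL pattern. It ran from 6.13 to 7.51 around 7.07 in TZL, was 6.26, 6.50, 7.94 and 6.70 in PTCL, and was 5.37, 4.66, 4.92, 5.77 and 4.03 in MZL. All MZL dogs lay below all TZL dogs, and the difference was -1.90 ± 0.37 log2 units (limma adjusted p = 2.98e-04). The 4 other RFC1 probe sets gave -1.34, -1.57, -1.35 and -0.56, and all but the last were called. In LBT minus TZL the brightest gave -0.46 and the others 0.51, -1.03, 0.78 and 0.94, with none called. In DLBCL RFC1 ran from 5.04 to 6.77 around 5.82.

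Of the single-strand binding and flap-trimming genes 1 of 4 tested was higher in PTCL, 3 in LBT and 1 in MZL than in TZL, against 7.6%, 17.8% and 15.2% of all tested genes. RPA2, the middle RPA subunit, ran from 6.82 to 8.17 in TZL and stood at 8.47, 8.48, 8.94 and 8.61 in PTCL, all above TZL, and at 9.09, 8.05, 8.30 and 8.65 in LBT, where 1 dog overlapped. The differences were 1.15 ± 0.23 and 1.04 ± 0.23 log2 units, and in MZL 0.26 (limma adjusted p = 0.389). RPA1, the large subunit, was higher in LBT by 1.61 ± 0.40. FEN1 was called in LBT (1.05) and MZL (0.95).

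Nucleotide supply genes were higher in 4 of 5 cases in PTCL, 5 of 5 in LBT and 3 of 5 in MZL than in TZL. RRM1, the large subunit of ribonucleotide reductase, ran from 9.43 to 10.39 in TZL, and was 10.25, 10.73, 11.08 and 11.02 in PTCL and 11.62, 10.98, 11.19 and 10.68 in LBT. Every LBT dog and all PTCL dogs but PTCL 1 lay above TZL, by means of 1.28 ± 0.21 and 0.93 ± 0.21. RRM2, its small subunit, which is made for S phase, spread from 4.37 to 7.96 in TZL and was higher by 2.06 ± 0.54 in PTCL and 2.12 ± 0.54 in LBT. TYMS, which makes thymidylate, ran from 9.10 to 10.08 in TZL and was 9.97, 11.17, 10.76 and 10.43 in PTCL, 10.80, 11.06, 10.92 and 10.58 in LBT, and 10.02, 10.60, 10.82, 10.39 and 10.91 in MZL. Only PTCL 1 and MZL 1 fell within the TZL range, and the differences were 0.89, 1.15 and 0.86 log2 units.

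TK1, the salvage kinase for thymidine, was scattered within subtypes, with 2.36 to 5.53 in TZL, where 3 of 9 dogs were under the minimum, 6.81, 4.40, 7.66 and 6.86 in PTCL, 6.28, 8.91, 5.63 and 7.52 in LBT and 4.50, 7.01, 7.58, 5.08 and 5.65 in MZL. PTCL 2 and MZL 1 and 4 overlapped TZL and the LBT dogs did not. The PTCL minus TZL difference of 2.20 ± 0.65 log2 units (limma adjusted p = 0.0209) was 2.07 without PTCL 1, 1.79 without PTCL 3 and 2.06 without PTCL 4, none called (adjusted p = 0.0569, 0.109 and 0.0547), and -0.070 in Golden Retrievers, whose only PTCL dog is PTCL 2. Set to the minimum where under it, the values gave differences of 1.83 in PTCL, 2.48 in LBT and, no longer called, 1.36 in MZL. DUT, which removes dUTP from the pool, was higher in MZL by 1.27 ± 0.24 without overlap, and had differences of 0.73 in PTCL and 0.68 in LBT.

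Of the chromatin genes UHRF1, which directs DNA methylation to newly made strands, lay under the minimum in every TZL dog, from 2.57 to 3.50. It was 4.43, 4.59, 5.47 and 4.24 in PTCL and 5.53, 5.84, 5.12 and 5.27 in LBT, above the minimum and above TZL in all 8 dogs. The levels were thus at least 1.61-fold and 2.72-fold higher. With values under the minimum set to it, the limma adjusted p was 0.00785 in PTCL and 3.18e-07 in LBT. In MZL all 5 dogs and in DLBCL 8 of 10 were under the minimum. CHAF1A, the large subunit of the CAF-1 histone chaperone, was called in both T comparisons, but 3 of 4 dogs of PTCL and of LBT and every TZL dog were under the minimum, so no difference is given.

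**Figure D4:**
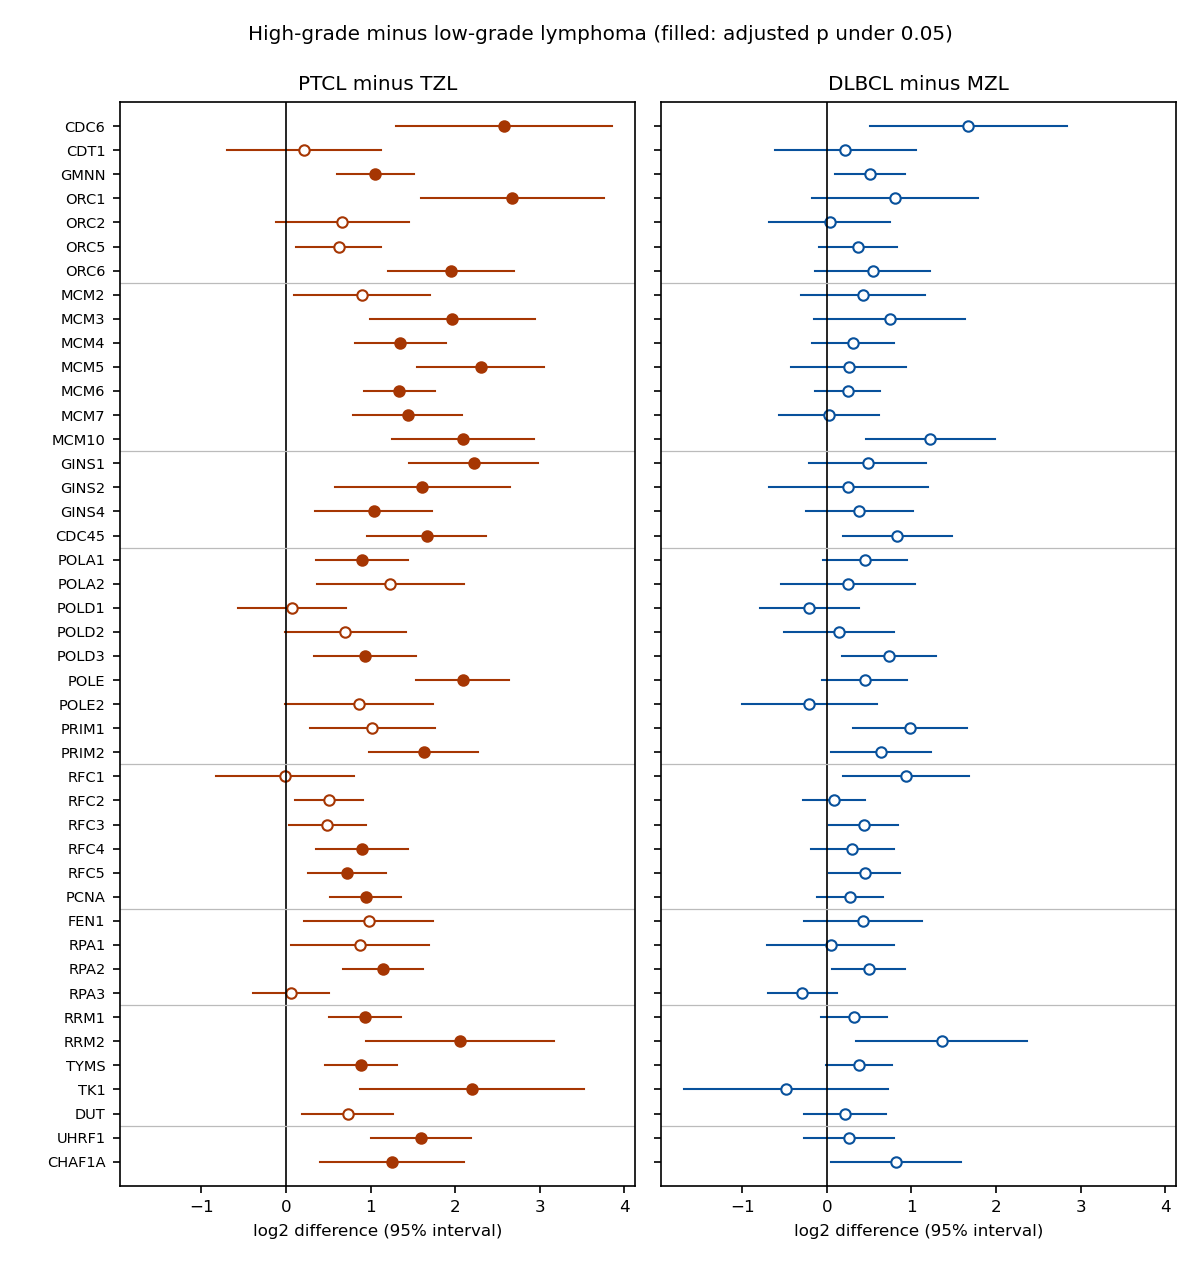
Log2 difference between high-grade and low-grade lymphoma for the 44 tested genes with 95% intervals, for PTCL minus TZL (left) and DLBCL minus MZL (right). Of the 4 PTCL dogs 1 was of intermediate grade. Filled points passed an adjusted p under 0.05: 28 on the left and 0 on the right, where 40 of 44 points still lie above 0. CHAF1A, POLA1, POLE and UHRF1 were under the minimum in every TZL dog, so their points on the left give no size.

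The corresponding step among B lymphomas, DLBCL against MZL, gave no member past the threshold. By limma 0 of 44 members and 0.0% of 7500 tested genes were called. At an unadjusted p under 0.05 there were 13 of 44 members, all higher in DLBCL, beside 977 of 7500 tested genes in either direction. The median member difference was 0.38 log2 units against -0.03 over all genes, and 40 of 44 differences lay above 0, against 46.6% of all genes. No member separated the groups without overlap, against 0.0933% of genes higher and 0.24% lower. MCM10 differed by 1.22 (95% interval 0.46 to 1.99, adjusted p = 0.158), with 4.73, 5.79, 4.45, 4.00 and 5.21 in MZL and 5.11 to 7.10 around 6.08 in DLBCL. CDC6 differed by 1.67 (interval 0.51 to 2.83), RRM2 by 1.36 (0.35 to 2.37) and PRIM1, the small primase subunit, by 0.99 (0.31 to 1.66). For MCM5 the interval of -0.42 to 0.94 around 0.26 held no change as well as a difference of nearly a log2 unit. With array weights CDC45, MCM10, PRIM1 and RFC1 were called, 4 of 44 members, against 5.04% of all tested genes in either direction. The difference between 3′ and 5′ actin controls moved with the groups, from -1.03 to -0.06 in MZL and from -0.27 to 4.50 in DLBCL on the log2 scale. With the RNA controls as covariates no member was called. Since no gene was called without them either, that fit cannot show their part in these values.

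Whether the T step differed from the B step was tested as an interaction, (PTCL minus TZL) minus (DLBCL minus MZL). By limma 3 of 44 members were called, all with a larger T step, against 1.21% of all genes in that direction and 0.747% in the other. MCM5 had a T step of 2.30 and a B step of 0.26 log2 units, a difference of 2.04 ± 0.50 (adjusted p = 0.0237). POLE was called at 1.64 ± 0.36 (adjusted p = 0.0139), but every TZL dog was under the minimum, and with such values set to it the difference was 0.50 and not called (adjusted p = 0.471). MCM6 had 1.34 and 0.25, a difference of 1.09 ± 0.28 (adjusted p = 0.0323). The other 2 probe sets of MCM5 gave 2.75, called, and 2.00, not called (adjusted p = 0.0916), and that of MCM6 gave 1.19, not called (adjusted p = 0.0567).

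Across members 42 of 44 interaction differences were above 0, against 55.4% of genes, with a median of 0.65 against 0.07, and 14 had an unadjusted p under 0.05, against 14.1% of genes. The count of 3 fell to 1 without MZL 3, without PTCL 2 and without PTCL 3, to 1 without the 6 arrays and to 1 without the 2 dogs of opposed sex signal. The share of all tested genes called in these fits was 0.56% to 1.19%. MCM5 lost its call without MZL 3 (1.70), PTCL 1 (1.90) or PTCL 2 (1.80), POLE without PTCL 3 (1.41), and MCM6 without any of 6 dogs (MZL 2, 3 and 5, TZL 5, PTCL 2 and 3), at 1.05 or less. With the T step taken from the mean of PTCL and LBT, an alternative chosen after seeing the data, 11 members were called, against 7.4% of all tested genes. Of the macrophage list 1 of 7 genes, CD14, also had a larger T step (1.55 with values under the minimum set to it), and its part was not tested.

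DLBCL was set against the mean of PTCL and LBT to compare B and T lymphomas at high grade, with 1 PTCL dog of intermediate grade. Here 6 members were higher in DLBCL and 7 lower by limma, against 17.1% and 19.9% of all tested genes, so the members' shares were near or below the background. The median member difference was -0.21 log2 units against -0.02 over all genes, and 18 of 44 differences lay above 0, against 48.7% of genes. No member separated the groups without overlap, against 1.01% of genes higher and 1.92% lower. Centring each array on its median gave 4 higher and 8 lower, and quantile normalization 7 higher and 5 lower. The shares of all tested genes called in either direction were 36.4% and 38.1% in these fits. The count was 12 without the 6 arrays and 9 without the 2 dogs of opposed sex signal, against 35.4% and 34.8% of all tested genes in either direction. Of the resting lymphocyte list 3 of 5 tested genes, IL7R, LEF1 and TCF7, were lower in DLBCL, as they were in MZL against TZL. Lineage and resting state cannot be told apart in these 3 genes. CCR7 (-1.19) and S1PR1 (0.98) of that list were not called by limma. Also lower in DLBCL were 2 of 7 macrophage markers and 1 of 2 endothelial markers. The part of all these genes was not tested. The resting lymphocyte sum ran from 50.6 to 281 in DLBCL, from 716 to 4780 in PTCL and from 1443 to 2402 in LBT. RNA controls moved with the groups too: the 3′ minus 5′ GAPDH control averaged 3.43 log2 units in DLBCL, 2.82 in PTCL and 2.86 in LBT, and the actin control 1.37, 0.72 and -0.58. With both as covariates 12 members were called, 4 of them higher in DLBCL, against 32.4% of all tested genes in either direction.

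Higher in DLBCL were POLD1, by 1.58 ± 0.25 log2 units (adjusted p = 9.97e-06), POLE2 by 1.29 ± 0.34, DUT by 0.78 ± 0.21 and RFC2 by 0.75 ± 0.15. POLD1 ran from 7.45 to 8.12 in DLBCL, and LBT 2 at 7.49 was the only one of the 8 PTCL and LBT dogs to reach that range. POLE2 ran from 9.01 to 11.17 in DLBCL, and stood at 9.08, 9.20, 8.69 and 8.96 in PTCL and at 9.53, 8.60, 8.73 and 9.47 in LBT, so the lowest DLBCL dog lay among the T dogs. ORC6 (0.71) and ORC5 (0.51) were also called, but of the 18 fits that leave out 1 dog ORC6 kept its call in 4 (0.61 without DLBCL 2) and ORC5 in 12, and with the RNA controls as covariates their differences were 0.43 and 0.13, not called.

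Lower in DLBCL were RPA1, with a log2 difference of -1.35 ± 0.32, UHRF1, TK1 (-1.27 ± 0.51), MCM5 (-1.06 ± 0.29), GMNN (-0.57 ± 0.18), RPA3 (-0.52 ± 0.17) and PCNA (-0.42 ± 0.16). UHRF1 reached the minimum in 2 of 10 DLBCL dogs, at 4.88 and 4.24, and in all 8 T dogs, so its difference was taken with values under the minimum set to it, -0.95 (limma adjusted p = 3.01e-06). RPA1 ran from 6.33 to 8.83 in DLBCL, and stood at 7.91, 9.99, 8.56 and 8.28 in PTCL and at 9.95, 8.95, 9.07 and 9.70 in LBT, where every dog was above the highest DLBCL dog. TK1 kept its call in 5 of the 18 fits that leave out 1 dog, with -0.97 without LBT 2, and with RNA controls as covariates its difference was -0.26, not called. PCNA kept its call in 9 of those fits, with -0.35 without LBT 1.

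The low-grade and high-grade comparisons of B with T share no dog. Of the 22 members called in MZL against TZL and the 13 called in DLBCL against the high-grade T lymphomas, 7 were called in both, 31.8% and 53.8% of each list. Over all tested genes 1179 were called in both, 57.1% and 42.5% of each list, and 1122 of those had the same direction. POLD1, POLE2, RFC2, ORC6 and DUT were higher in the B lymphoma in both. MCM5 and TK1 were called in opposite directions, higher in MZL than in TZL and lower in DLBCL than in the high-grade T lymphomas. At high grade ORC6 kept its call in 4 and TK1 in 5 of the 18 fits that leave out 1 dog. In MZL against TZL TK1 kept its call in 9 of 14 such fits and lost it with values under the minimum set to it. RFC1, lower in MZL, had a difference of -0.73 at high grade (limma adjusted p = 0.067), where 3 of its 4 other probe sets were called, at -1.08, -1.55 and -0.88.

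**Figure D5:**
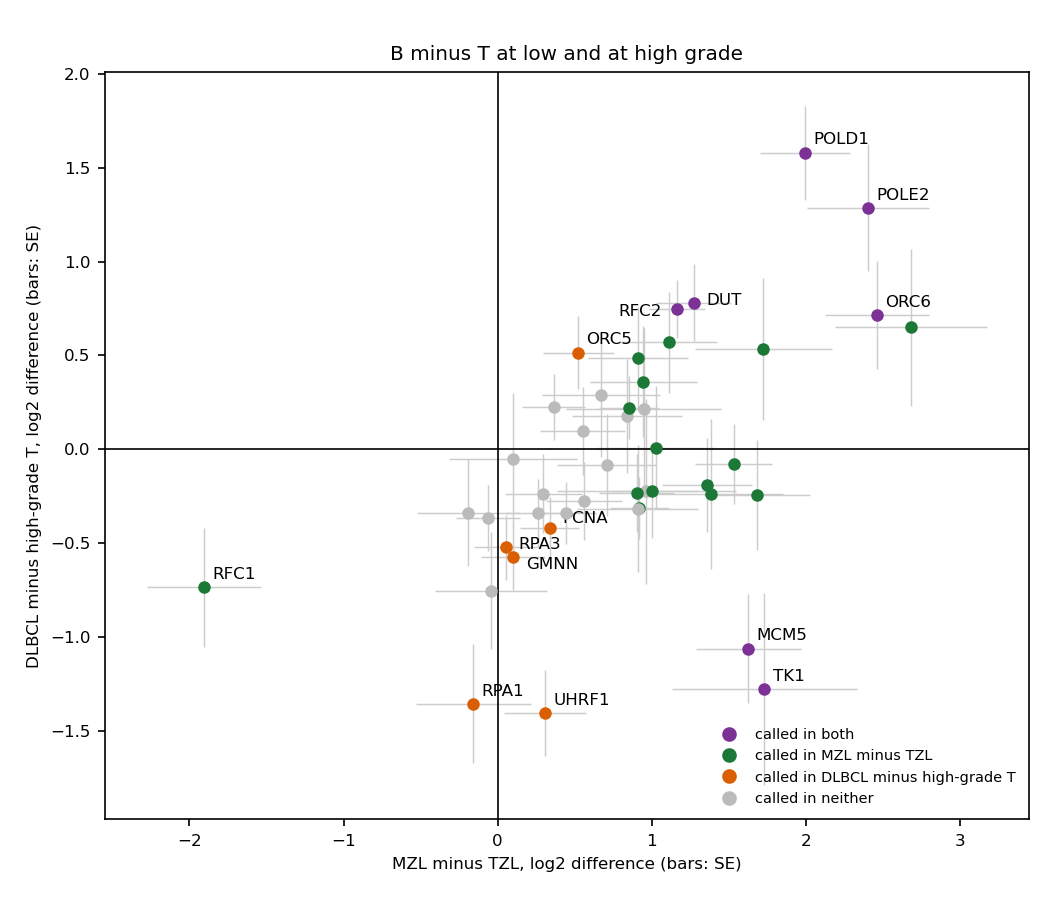
Log2 difference of MZL minus TZL (horizontal) against DLBCL minus the mean of PTCL and LBT (vertical) for the 44 tested genes, with SE bars and colours by the comparison in which a gene was called. POLD1, POLE2, ORC6, RFC2 and DUT lie at the upper right, and MCM5 and TK1 at the lower right.

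Within the high-grade lymphomas no member passed the threshold by limma. LBT against PTCL called 0 of 44 members and 0.68% of genes, with 2 members at an unadjusted p under 0.05, MCM5 (1.30, 95% interval 0.42 to 2.18) and UHRF1 (0.76, interval 0.07 to 1.45), against 12.5% of genes. The median member difference was 0.25 log2 units against 0.05 over all genes, and 33 of 44 differences lay above 0, against 55.1% of genes. BL against DLBCL called 0 of 44 members and 0.0267% of genes. At an unadjusted p under 0.05 there were 9 members, all higher in BL, against 5.68% of genes, and 39 of 44 differences lay above 0, against 58.8%. RRM1 was 11.31 and 11.66 in the BL dogs and 10.16 to 11.18 in DLBCL, a difference of 0.88 (interval 0.33 to 1.43, adjusted p = 0.438). The BL dogs lay above all DLBCL dogs for 8 members, against 2.2% of genes, with only 2 BL dogs to set the range.

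Related genes outside the set were taken from 4 lists chosen by function, whose counts stand against 7.6% of all tested genes higher in PTCL than in TZL, 17.8% in LBT and 15.2% in MZL, with 6.07%, 12.4% and 12.3% lower. All 16 tested mitosis genes were higher in PTCL and in LBT than in TZL, with median log2 differences of 3.00 and 3.13, and 8 were higher in MZL. TOP2A, the topoisomerase that untangles sister chromatids, was 3.14 ± 0.59 log2 units higher in PTCL than in TZL. Of 24 other replication factors 7 were higher in PTCL, 8 in LBT, and 6 higher and 3 lower in MZL. These included NASP, a histone chaperone (1.86 ± 0.28 in PTCL, 2.43 ± 0.28 in LBT), ASF1B, another (1.52 and 1.69 with values under the minimum set to it), and WDHD1, which tethers polymerase alpha to the helicase (1.49 in PTCL). MKI67, the usual proliferation marker, had no probe set paired with it. Of 25 other nucleotide synthesis genes 2 were higher in PTCL, a share near that of all genes, CTPS2, which makes CTP (1.19), and MTHFD2, of mitochondrial folate metabolism (2.14). In LBT 10 were higher and in MZL 7. Of 13 E2F and G1/S genes 3 were higher in PTCL, 5 higher and 1 lower in LBT, and 3 higher and 3 lower in MZL. CCNA2, the S-phase cyclin, was 3.09 ± 0.57 higher in PTCL with values under the minimum set to it, and CDKN1A, a CDK inhibitor, was lower in LBT than in TZL, with a log2 difference of -2.38 ± 0.72. None of these lists had a called gene in DLBCL against MZL by limma, where no gene of the array was called.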

How the data were processed

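Tumour RNA of 35 dogs was measured on 36 arrays. The deposited values are probe set intensities on a linear scale, which the authors had summarised with GCRMA per the submitters' processing notes, which give no version here. Each value was raised to at least 1, its log2 was taken, and the DLBCL case with 2 arrays entered as their mean. Of 43035 probe sets 29254 carried exactly 1 gene symbol in the platform annotation, 439 several, and 111 were controls. Each gene was read from its brightest probe set on average. Testing required a log2 value of 4 or more in 4 or more of 34 dogs. R 4.3.3 with limma 3.58.1 fitted 1 mean per subtype over all 34 dogs, with eBayes. Tests were two-sided, p-values were Benjamini-Hochberg adjusted across 7500 genes, and a gene was called under 0.05. Dogs are the replicates, and the number of arrays limits the precision.

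The members, gene lists and alternatives were chosen with earlier results of these data known. Genes named with values were those with the smallest F-test p in each role and, in each comparison, at most 10 called members in each direction with the largest differences. Alternatives covered the filter, centring, quantile normalization, the variance model, array weights, probe set choice, the repeated array, sex, breed and age, Golden Retrievers, the 6 arrays, RNA controls, the compared groups and each dog. Chosen after seeing the data were the minimum as a floor, the T step over both high-grade T subtypes, and leaving out the 2 dogs of opposed sex signal. The steps were tested on simulated data.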

Additional observations from a re-analysis of the deposited data

Results flagged for a closer look

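POLD1 in PTCL 2 stood apart from its subtype, with a log2 value of 5.33 against 6.24 to 6.39 in the other 3 PTCL dogs. It was the only such value in 90 subtype groups of 4 to 10 dogs, examined for the 17 members described in every dog and the averaged level. Chance gives about 1 in 20 groups, so 1 in 90 is no more than chance gives. The step from TZL to PTCL differed from the step from MZL to DLBCL for 3 members by limma's interaction test. The T step minus B step was 2.04 log2 units for MCM5, 1.64 for POLE and 1.09 for MCM6. Grade and subtype cannot be told apart in these steps, and each of the 3 calls was lost without at least 1 dog. Every TZL dog was under the minimum for POLE, and with such values set to it the POLE difference was 0.50 and not called.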

How the results depend on the processing

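No paired analysis was possible because the replicate numbers only name dogs in accession order. The number of members called in PTCL against TZL was 10 in Golden Retrievers, and the TK1 difference turned there to -0.070, where PTCL is 1 dog. In DLBCL against MZL 4 members were called with array weights, against 5.04% of all tested genes, and 0 under the other alternatives run. The MCM5 difference between grade steps was 2.30 log2 units in Golden Retrievers, where PTCL is 1 dog. For the difference between grade steps the count of 3 became 1 without the 6 arrays (0.56% of all tested genes) and 1 without the 2 dogs of opposed sex signal (0.8%). The count was 5 with the 6 arrays as a block (2.32%), 5 with RNA controls as covariates (2.89%) and 11 with the T step from the mean of PTCL and LBT (7.4%). Leaving out 1 dog at a time gave 1 to 4 members for the difference between grade steps. The same gave 21 to 29 in PTCL against TZL, 31 to 37 in LBT against TZL, 17 to 22 in MZL against TZL and 9 to 14 in DLBCL against the high-grade T lymphomas, and 0 in the other comparisons. Apart from the Golden Retriever fits of PTCL against TZL and of the grade steps, the other alternatives kept each count within 1.5 times. Signal over background limited POLA1, POLE, UHRF1 and CHAF1A, which were under the minimum in every TZL dog. The cause of the shifts was not tested.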

Other observations

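The single NBNT dog, of low grade, had an averaged log2 level of 6.48 over the 46 members, within the TZL range of 5.82 to 6.89. Its log2 levels were 7.37 for MCM5, 6.51 for ORC6, 6.07 for GINS1, 10.49 for PCNA and 9.72 for TYMS, each inside the range of the 9 TZL dogs, and POLE and UHRF1 were under the minimum at 3.04 and 2.98.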
